A study of Mus musculus with 69 samples.

Results

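The genes examined here encode the collagen alpha chains, the subunits of the main structural proteins of the extracellular matrix. A gene was a member when a probe on the array carried a transcript accession that RefSeq pairs with a symbol made of Col, a number, the letter a and a number. RefSeq listed 44 such symbols, and 43 of them had at least 1 probe. Those 43 chains were measured by 74 probes, out of 18753 genes and 41174 probes in the whole series, and all 43 entered the tests over 18660 genes. Col12a1, a chain that sits on the surface of collagen fibrils, had no matched probe and was not analysed here.

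Lungs came from female C57BL/6 mice that were 5 to 7 weeks old on arrival and were then housed for 1 to 3 weeks. By a single intratracheal instillation, each mouse was given 18, 54 or 162 µg of NRCWE-025 or of NRCWE-030, which are both titanium dioxide nanomaterials (nano-TiO2). Control mice were given the suspension vehicle, water with 2% serum. RNA was taken 24 h later (day 1) or 28 days later (day 28) from a small piece of frozen lung, and mice examined on day 28 were therefore also older. The 69 arrays, 1 per mouse, fall into 14 groups: 13 groups of 5 and 1 of 4 (NRCWE-025 at 162 µg on day 28). Both materials share the same 5 control mice on each day. On each array the lung RNA was labelled with Cy5 and a Universal Mouse Reference RNA, the same for all arrays, with Cy3. Every level below is a log2 ratio of lung over reference for 1 gene, so levels of different chains cannot be set against each other, whereas differences between groups can.

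Collagens are built from chains that wind around each other into a long helix, after their prolines and lysines have been hydroxylated in the endoplasmic reticulum. Fibrillar collagens (types I, II, III, V, XI, XXIV and XXVII) are secreted as procollagens, trimmed at both ends, and crosslinked into the fibrils that give the lung its tensile strength. Type IV collagen forms the sheet-like network of basement membranes, on which the alveolar epithelium and the capillary endothelium rest. Other families decorate fibrils, link basement membranes to the tissue beneath, span the cell membrane, or carry the glycosaminoglycan chains of the multiplexins. Fibroblasts make most of the fibrillar chains, and their deposition in excess is what defines pulmonary fibrosis, an outcome for which inhaled particles are screened.

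By structure, the 43 chains comprised 11 fibrillar chains, 6 of the basement membrane network, 6 of the type VI beaded filaments, the single anchoring fibril chain Col7a1, 3 chains of the short-chain networks, 8 fibril-associated chains, 4 transmembrane chains, 2 multiplexins and 2 others. With a chain counted on an array where at least 1 of its probes was well above background, 23 chains were above background on all 69 arrays, 19 on some arrays and Col28a1 on none. A further 6 chains were above background on fewer than 10 arrays. These were Col10a1 on 2 arrays, Col19a1 and Col24a1 on 3 each, Col6a6 on 5, Col9a3 on 6 and Col9a1 on 7. The median within-group SD was 0.187 for the chains and 0.173 for all genes. Across the series, 49.1 to 72.8% of spots were well above background (median 62.1%), no spot was saturated, and the lowest correlation of an array with the median array was 0.904 (NRCWE-030 at 18 µg on day 1, replicate 3). Markers of alveolar type 1 cells, alveolar type 2 cells and endothelium were above background on all 69 arrays.

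The promoter windows of 3 chains are shown because their measurements carry the results that follow. Col18a1 was the chain called between a dose group and its controls, and Col5a1 and Col8a2 had the smallest adjusted p-values among the chains lower and higher on day 28. Each sequence is the 250 bases before a RefSeq transcription start of assembly GRCm38.p6, written 5′ to 3′ on the gene's strand, and capitals mark GGGCGG, the core of a GC box, on either strand. Col18a1 has 2 annotated starts. The first lies at chr10:77113706-77113955 and the second at chr10:77166531-77166780, both on the minus strand. Col5a1 has its window at chr2:27886175-27886424 and Col8a2 at chr4:126286544-126286793, both on the plus strand.
Col18a1, first start: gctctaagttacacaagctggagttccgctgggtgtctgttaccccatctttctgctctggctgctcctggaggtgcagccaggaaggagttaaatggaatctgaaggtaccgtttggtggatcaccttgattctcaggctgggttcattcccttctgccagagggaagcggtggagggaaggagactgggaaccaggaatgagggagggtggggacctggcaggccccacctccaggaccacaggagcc
Col18a1, second start: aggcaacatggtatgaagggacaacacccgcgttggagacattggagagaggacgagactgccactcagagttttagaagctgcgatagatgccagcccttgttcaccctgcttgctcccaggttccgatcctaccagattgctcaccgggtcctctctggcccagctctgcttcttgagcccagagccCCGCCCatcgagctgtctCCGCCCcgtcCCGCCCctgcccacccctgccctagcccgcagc
Col5a1: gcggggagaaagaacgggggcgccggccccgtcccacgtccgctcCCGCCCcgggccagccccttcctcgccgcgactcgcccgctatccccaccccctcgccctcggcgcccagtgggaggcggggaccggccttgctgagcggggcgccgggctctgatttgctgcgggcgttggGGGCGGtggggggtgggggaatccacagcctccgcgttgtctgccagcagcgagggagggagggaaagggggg
Col8a2: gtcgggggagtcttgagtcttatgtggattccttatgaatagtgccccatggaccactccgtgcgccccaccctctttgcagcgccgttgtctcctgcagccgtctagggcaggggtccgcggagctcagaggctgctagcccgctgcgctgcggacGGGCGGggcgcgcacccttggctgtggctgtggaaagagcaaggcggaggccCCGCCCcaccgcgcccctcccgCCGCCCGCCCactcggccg

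The second start of Col18a1 held 3 matches, Col5a1 2 and Col8a2 4, of which the last 2 in Col8a2 overlap, while the first start of Col18a1 held none. The array probes do not tell which start of Col18a1 was used. Windows were found for 35 of the 43 chains, 38 windows in all. GGGCGG was present on either strand in 22 of the 38 windows (57.9%), against 10756 of 32851 windows of the same length over all genes (32.7%). CCAAT was present in 13 of the 38 (34.2%, against 33.8%) and TATAAA in 5 (13.2%, against 12.4%). These are letter matches and do not show that a factor binds there. Col4a1 and Col4a2, which encode partner chains of the type IV network, start head to head on opposite strands, and their 300-base windows, which run 50 bases past the start, overlap by 78 bases.

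The first comparison asked whether the 3 doses of a material changed any collagen chain against the vehicle controls of the same day. No chain passed an F-test over the doses at an adjusted p under 0.05 for either material on either day (limma, Benjamini-Hochberg over 18660 genes). With slide as a random block Col18a1 passed for NRCWE-030 on day 1 (adjusted p = 0.025). Among all genes, 0.0214% passed for NRCWE-025 on day 1, 0.954% for NRCWE-030 on day 1, 0.0268% for NRCWE-025 on day 28 and 0.102% for NRCWE-030 on day 28. At an unadjusted p under 0.05, 7, 9, 5 and 4 of the 43 chains passed in the same order (16.3, 20.9, 11.6 and 9.3%), against 9.97, 11.2, 5.77 and 7.06% of all genes. The smallest p-values belonged to Col17a1, an adhesion collagen of epithelial cells, and Col9a1, Col4a4, Col4a3 and Col13a1 for NRCWE-025 on day 1. For NRCWE-030 on day 1 they belonged to Col18a1, Col5a2, Col5a1, Col22a1 and Col7a1. On day 28 they were those of Col5a2, Col8a1, Col4a4, Col6a6 and Col13a1 for NRCWE-025, and of Col5a3, Col18a1, Col5a2, Col1a2 and Col22a1 for NRCWE-030. Of the 12 single comparisons of a dose group with its controls, 11 called no chain. The share of all genes called there was 0% at 18 and 54 µg NRCWE-025 and 0.209% at 162 µg on day 1, and 0.00536 and 0.0804% at 18 and 54 µg NRCWE-030. On day 28 it was 0.0589, 0.0268 and 0.0161% for the 3 doses of NRCWE-025 in rising order, and 0.118, 0.0536 and 0.0965% for those of NRCWE-030. At an unadjusted p under 0.05, 2 to 8 chains passed in each of these 11 (4.65 to 18.6%), against 5.12 to 12.3% of all genes.

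**Figure D1:**
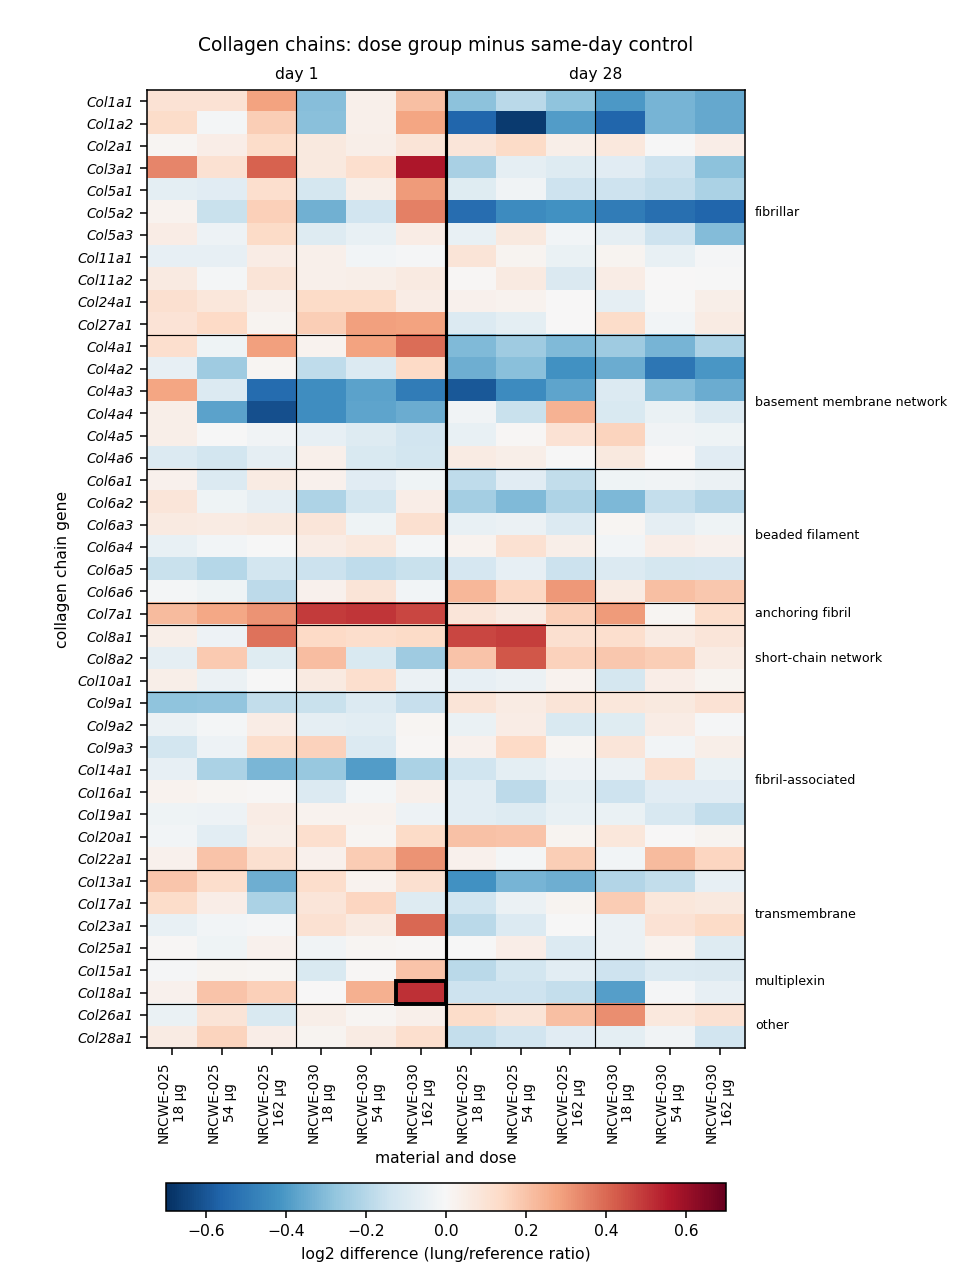
Difference in log2 lung/reference ratio between each dose group and the controls of its day, for the 43 collagen chains (rows, by family) and 12 dose groups (columns); colour gives the difference and the box marks the 1 value with an adjusted p under 0.05. The boxed cell is Col18a1 at 162 µg NRCWE-030 on day 1 (+0.51), and the fibrillar chains are mostly positive in the 162 µg columns of day 1.

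The exception was Col18a1 at 162 µg NRCWE-030 on day 1. Col18a1 encodes the chain of type XVIII collagen, a heparan sulfate multiplexin of epithelial and endothelial basement membranes whose cleaved end is endostatin. Its log2 ratio was -1.16, -0.97, -1.13, -1.32 and -1.25 in the 5 control lungs of day 1. In the 5 lungs that had received 162 µg NRCWE-030 it was -0.44, -0.38, -0.69, -0.98 and -0.80. The groups overlapped by 1 array on each side, and the other 4 treated arrays lay above all controls. The difference was 0.51 ± 0.118 (SE, n = 5 and 5), or 1.42-fold, with an adjusted p of 0.0312 in limma. For this contrast 1.69% of all genes were called, 1.22% higher and 0.472% lower, so 1 chain of 43 is close to the share over all genes.

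Both Col18a1 probes, each above background on all 69 arrays, moved alike. One went from a mean of -1.16 in the controls to -0.67 (a difference of 0.492), and the other from -1.17 to -0.64 (0.528). In whole lung, a larger share of cells that make a transcript and more transcript per cell cannot be told apart. The call rested on few arrays. It held in 13 of 20 fits that left out 1 array (0.44 to 0.592). Fits without an 18 or 54 µg array kept both groups of the contrast whole, so the difference stayed at 0.51 in them. When an array of the contrast was left out, the call held only without control replicate 2 or replicate 4 or 5 of the 162 µg group. It was lost without replicate 1, 2 or 3 of that group or without control replicate 1, 3, 4 or 5, with adjusted p-values up to 0.101. It was also lost when the brightest probe stood for the gene (adjusted p = 0.166), with scan day as a fixed block (0.231) and with slide as a fixed block (0.12). Within the 2 slides that held both groups, treated minus control was 0.564 and 0.882. Within the 2 such scan days it was 0.882 and 0.417. Each value came from 1 or 2 treated arrays and 1 control, and they are not separate. The value of 0.882 is the same pair of arrays both times, and 0.564 and 0.417 share 1 treated array and their control.

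At the other doses and times Col18a1 stayed nearer its controls. On day 1, NRCWE-030 gave -1.11, -1.18, -0.99, -1.22 and -1.31 at 18 µg. At 54 µg it gave -1.08, -0.82, -0.68, -1.22 and -0.78, a difference of 0.25 ± 0.12 that did not pass. NRCWE-025 at 162 µg gave -1.35, -1.14, -0.92, -0.57 and -1.01 (0.17 ± 0.12, not called). The group means for NRCWE-030 thus stood in the order of dose on day 1, but only the highest dose differed from the controls beyond the spread. On day 28 the controls were at -1.05, -1.03, -1.08, -0.80 and -1.21 and the 162 µg NRCWE-030 lungs at -1.36, -0.99, -1.16, -1.17 and -0.79, a difference of -0.06 ± 0.12. At 18 µg on day 28 it was -0.39 ± 0.12 (adjusted p = 0.27). The difference between the day 1 and day 28 effects was 0.57 ± 0.17, with an adjusted p of 0.191. The materials were not shown to differ for Col18a1 on day 1 either (F-test, adjusted p = 0.635). Col15a1, the other multiplexin, differed by 0.20 ± 0.10 at 162 µg NRCWE-030 on day 1 (adjusted p = 0.46 in limma). Its probe above background on 67 arrays gave 0.426 there, and the other, above background on 1 array, gave -0.0283.

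**Figure D2:**
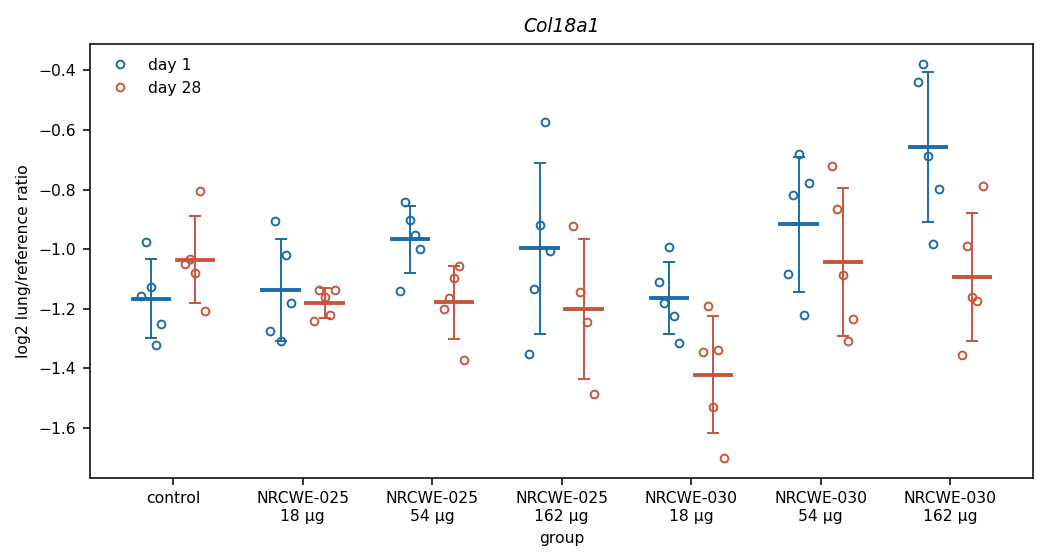
Log2 lung/reference ratio of Col18a1 on each of the 69 arrays (points), by material, dose and day in 14 groups, with the group mean and SD as bars. The 162 µg NRCWE-030 group of day 1 lies between -0.98 and -0.38, and its control group between -1.32 and -0.97.

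Among the fibrillar chains, Col3a1 had the largest difference at 162 µg NRCWE-030 on day 1. Col3a1, the chain of the thin type III fibrils of distensible tissues, was at -0.47, -0.28, -0.87, -0.35 and -0.41 in the controls and at 0.50, -0.08, -0.10, 0.13 and 0.00 in the treated lungs. The groups did not overlap, yet the difference of 0.57 ± 0.19 had an adjusted p of 0.16. With 162 µg NRCWE-025 the 5 values of Col3a1 were 0.39, 0.10, -0.50, -0.01 and -0.29, and the difference of 0.42 ± 0.14 had an adjusted p of 0.20. These lungs overlapped the controls. Over the family, 10 of 11 fibrillar chains had a positive difference at 162 µg NRCWE-030 (median 0.212, range -0.00715 to 0.569), and 11 of 11 at 162 µg NRCWE-025 (median 0.13, range 0.0206 to 0.415). Over all genes, 51.3% and 50% were positive. These 2 counts share their control lungs, and no fibrillar chain was called in either contrast, where 1.69 and 0.209% of all genes were.

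The type I chains, which build the thick fibrils that predominate in scar, moved little on day 1. Col1a1 was at -1.13, -1.59, -1.58, -1.44 and -1.99 in the controls and at -0.43, -1.43, -1.75, -1.39 and -1.67 with 162 µg NRCWE-030. A single lung, replicate 1, stood apart, and the difference was 0.21 ± 0.24 (adjusted p = 0.82). The same lung was the highest for Col1a2 (-0.42), for Col5a1 (-0.21) and for Col3a1 (0.50). Col1a2 as a whole differed by 0.28 ± 0.21. Col5a1 and Col5a2, chains of the type V collagen that sets fibril diameter, were not called in this contrast, with 0.30 ± 0.12 for Col5a1 (adjusted p = 0.24) and 0.35 ± 0.17 for Col5a2 (adjusted p = 0.41).

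On day 28 the fibrillar chains lay mostly on the other side of their controls. At 162 µg NRCWE-030, 3 of 11 were positive (median -0.222), and at 162 µg NRCWE-025 also 3 of 11 (median -0.0878), again with shared controls. Over all genes, 49.3 and 48.7% were positive. Col5a2 was at -1.34, -1.27, -1.82, -1.47 and -1.11 in the controls of day 28. It was at -1.86, -2.32, -1.59, -2.28 and -1.72 with 162 µg NRCWE-030, a difference of -0.55 ± 0.18 with an adjusted p of 0.43, and the groups overlapped. All 6 dose groups of day 28 had a lower Col5a2 mean than the 5 shared controls, by between 0.43 (162 µg NRCWE-025) and 0.55 (162 µg NRCWE-030), and the smallest adjusted p was 0.196, at 18 µg NRCWE-025. Col5a3, a further type V chain, was at -0.72, -0.68, -0.83, -0.73 and -0.82 in those controls and at -1.04, -1.10, -1.08, -1.17 and -0.91 with 162 µg NRCWE-030. These did not overlap, but the difference of -0.30 ± 0.07 had an adjusted p of 0.15. With slide as a random block it passed (adjusted p = 0.0339). Col1a1 differed by -0.36 ± 0.17 (adjusted p = 0.65) in the same contrast. Col1a2 was at -0.93, -1.54, -1.44, -1.04 and -1.35 in the controls and -1.42, -1.60, -2.19, -1.63 and -2.23 with 18 µg NRCWE-030 (-0.55 ± 0.17, adjusted p = 0.25).

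Whether the effect of 162 µg differed between the days was tested directly. No chain was called for NRCWE-025, where 0.0589% of all genes were, or for NRCWE-030, where 0.198% were. The nearest for NRCWE-030 were Col3a1 (0.86 ± 0.234 higher effect on day 1, adjusted p = 0.106), Col5a1 (0.52 ± 0.142, adjusted p = 0.108) and Col5a2 (0.90 ± 0.256, adjusted p = 0.149). With slide as a random block, Col3a1 and Col5a1 passed (adjusted p = 0.0409 and 0.0294). For NRCWE-025 the nearest was Col6a6 (-0.48 ± 0.113, adjusted p = 0.0673), a type VI chain above background on 5 of 69 arrays. It passed with slide as a random block (adjusted p = 0.018), slide as a fixed block (0.0351) and scan day as a fixed block (0.0211). The materials were not shown to differ in any chain over their doses, on day 1, where 0.155% of genes were called, or on day 28 (0.241%). At an unadjusted p under 0.05 the materials differed in 4 chains on day 1 and 3 on day 28 (9.3 and 6.98%, against 7.78 and 6.29% of all genes). At each matched dose and day, NRCWE-030 minus NRCWE-025 called no chain in any of 6 contrasts. The share of all genes called was 0.0482, 0.0589 and 0% at 18, 54 and 162 µg on day 1, and 0, 0.0804 and 0.0161% on day 28. The smallest unadjusted p among the chains was that of Col18a1 at 162 µg on day 1 (0.34 ± 0.119, adjusted p = 0.656).

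Basement membrane chains did not share 1 direction on day 1. Col4a1, which with Col4a2 forms the network found under most epithelia and vessels, was at 1.20, 1.58, 1.51, 1.62 and 1.28 in the controls. With 162 µg NRCWE-030 it was at 1.90, 2.12, 1.26, 1.85 and 2.02, a difference of 0.39 ± 0.15 with an adjusted p of 0.23. Replicate 3 was the only 1 of these 5 lungs inside the range of the controls, and without it the difference of 0.534 passed (adjusted p = 0.0471). Col4a4, a chain of the alveolar and glomerular basement membrane, pointed the other way with 162 µg NRCWE-025. It was at 1.97, 2.17, 2.35, 2.30 and 2.41 in the controls and at 1.26, 1.38, 1.79, 1.72 and 1.96 in the treated lungs, with no overlap (-0.62 ± 0.19, adjusted p = 0.157). Its partner Col4a3 differed by -0.54 ± 0.22 (adjusted p = 0.32). Of the 6 chains, 2 had a positive difference in each 162 µg contrast of day 1.

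The remaining families gave no call against the controls. Col7a1, the only chain of the anchoring fibrils below basement membranes, was at -1.55, -0.97, -1.21, -1.54 and -1.04 in the controls of day 1 and at -1.14, -0.71, -0.66, -0.88 and -0.61 with 162 µg NRCWE-030. Its means were higher by 0.49, 0.50 and 0.47 (SE 0.17) at 18, 54 and 162 µg, so that the size did not follow the dose, and the adjusted p-values were 0.56, 0.33 and 0.22. Col17a1 was at 1.22, 1.06, 1.12, 0.99 and 0.95 in the controls and at 0.85, 0.91, 0.95, 0.86 and 0.66 with 162 µg NRCWE-025 (-0.22 ± 0.07, adjusted p = 0.19). Col8a1, of the short-chain network around vessels, was higher than the day 28 controls by 0.47 ± 0.15 at 18 µg (adjusted p = 0.33) and by 0.48 ± 0.15 at 54 µg NRCWE-025 (adjusted p = 0.44). The fibril-associated Col14a1 differed by -0.32 ± 0.11 at 162 µg NRCWE-025 on day 1 (adjusted p = 0.22), and Col22a1 by 0.32 ± 0.10 at 162 µg NRCWE-030 (adjusted p = 0.13). The transmembrane chain Col13a1 differed by -0.34 ± 0.16 at 162 µg NRCWE-025 on day 1. Col6a3, a chain of the type VI filaments that surround cells, differed by 0.07 ± 0.09 in that contrast. Col24a1 was above background on 3 of 69 arrays, and its means lay within 0.14 of their controls in all 12 dose groups.

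More chains were called between days than between doses, but the day contrast over all conditions held far more arrays than any dose contrast. The counts therefore do not compare the sizes of the effects. Among the controls alone, 5 against 5, no chain was called (limma), where 0.0375% of all genes were. At an unadjusted p under 0.05, 4 chains passed (9.3%), against 8.51% of all genes. The smallest p-values there were those of Col9a1 (-0.27 ± 0.072, adjusted p = 0.161) and Col4a4 (-0.60 ± 0.213, adjusted p = 0.373). With all 7 conditions averaged, 34 arrays of day 28 against 35 of day 1, 16 of the 43 chains were called (37.2%), 13 lower and 3 higher on day 28. Over all genes the share was 16.8%, with 8.71% higher and 8.05% lower. Of the 43 chains, 9 had a positive difference (20.9%, median -0.0605), against 49.9% of all genes (median -0.000264).

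**Figure D3:**
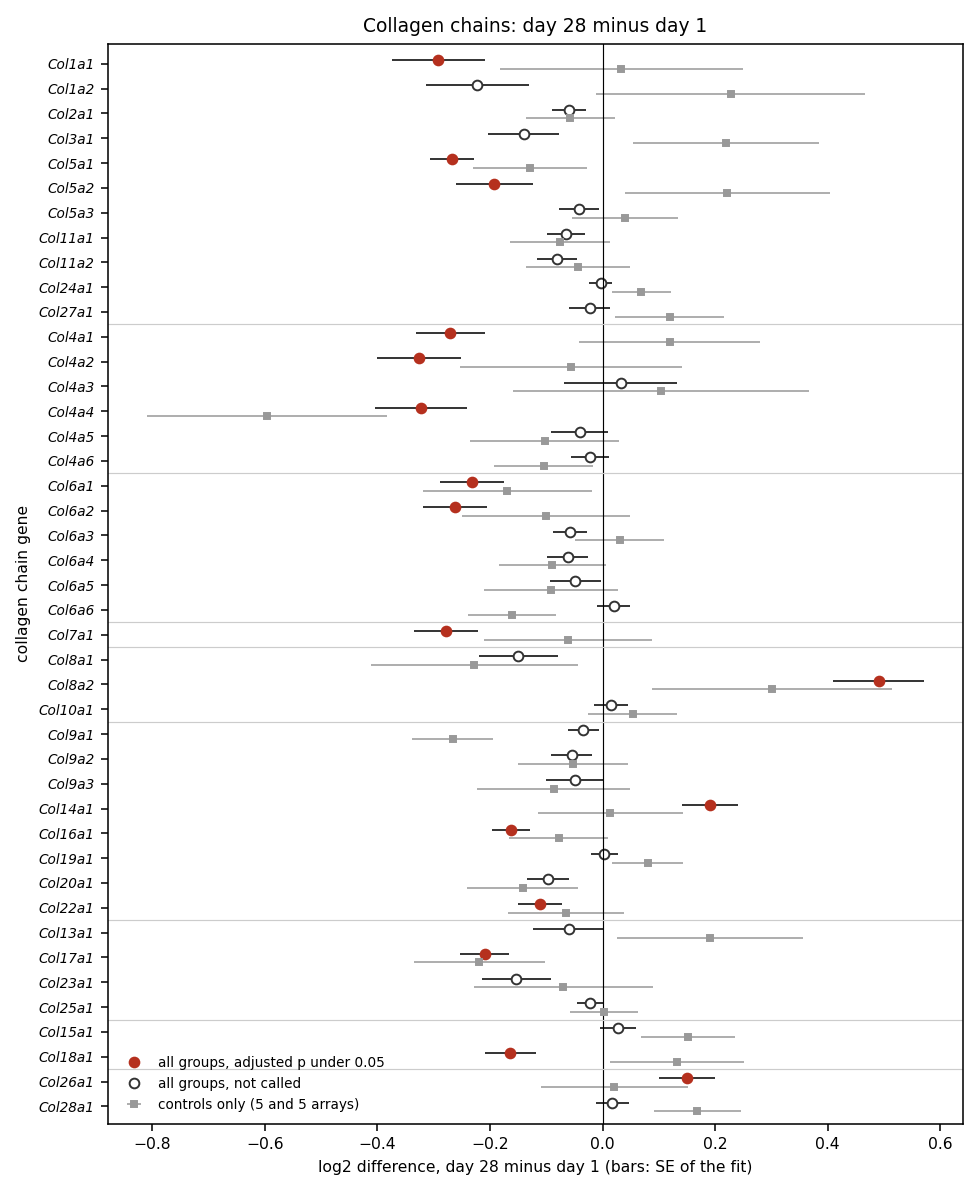
Difference in log2 lung/reference ratio between day 28 and day 1 for each of the 43 chains, over all 7 conditions (circles, with SE bars; filled red where the adjusted p was under 0.05, open otherwise) and in the controls alone (grey squares). Of the 16 filled points 13 lie below 0, and Col8a2 (+0.49) lies farthest above it.

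Day and slide were nearly confounded. Only 1 of the 19 slides held arrays of both days, and with slide as a random block 6 chains were called, Col8a2 higher and Col5a1, Col6a2, Col7a1, Col16a1 and Col17a1 lower, while with slide as a fixed block none was, and 7 of the 16 chains changed sign. By contrast, 7 of the 11 scan days held both days, and with scan day as a fixed block 16 chains were called, Col26a1 not among them. Time since instillation and the age of the mice cannot be told apart. Without any 1 array, 14 to 17 chains were called.

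Among the fibrillar chains, Col5a1, Col1a1 and Col5a2 were called, all lower on day 28, and none of the 11 had a positive difference (median -0.0805). Col5a1 ran from -1.22 through a median of -0.92 to -0.21 on the 35 arrays of day 1, and from -1.38 through -1.17 to -0.78 on the 34 of day 28. The ranges overlapped, but the day 28 mean was lower in 7 of 7 conditions. It was also lower within all 7 scan days that held both days (-0.333 to -0.0775 within a scan day). Scan-day comparisons, here and below, averaged all arrays of each day, and these differed in material and dose and mostly in slide. Counts of conditions and of scan days use the same arrays as the test and are not separate support for a call. For Col5a1 the difference over all conditions was -0.27 ± 0.038, or 1.2-fold, with an adjusted p of 9.84e-07 in limma. Its 2 probes gave -0.213 and -0.321. Col1a1 went from a median of -1.54 (-2.13 to -0.43) to -1.80 (-2.42 to -1.18), a difference of -0.29 ± 0.082 (1.22-fold, adjusted p = 0.00946), lower in 6 of 7 conditions and in 7 of 7 scan days. Its 3 probes gave -0.317, -0.290 and -0.250. The controls were the exception for Col1a1, with means of -1.546 on day 1 and -1.513 on day 28. Col5a2 fell by 0.19 ± 0.069 (adjusted p = 0.0457) and was called in 33 of 69 fits that left out 1 array. It was lower in 5 of 7 conditions, and the controls went the other way (-1.622 on day 1 and -1.401 on day 28). The calls of Col1a1 and Col5a2 were lost with slide as a random or fixed block. Col1a2 (-0.22 ± 0.091, adjusted p = 0.0827) and Col3a1 (-0.14 ± 0.063, adjusted p = 0.118) were not called.

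Of the 6 basement membrane chains, 3 were called lower, none of them with slide as a random or fixed block, and with the fixed block Col4a1 and Col4a2 reversed (0.56 and 0.755). Col4a1 went from a median of 1.58 (1.14 to 2.23) on day 1 to 1.32 (0.75 to 1.97) on day 28, a difference of -0.27 ± 0.062 (1.21-fold, adjusted p = 0.00132). Col4a2 went from 1.21 (0.72 to 1.82) to 0.87 (0.04 to 1.69), a difference of -0.33 ± 0.075 (1.25-fold, adjusted p = 0.00145). Both partners were thus lower by about the same amount, Col4a2 in 7 and Col4a1 in 6 of 7 conditions, with the controls as the exception for Col4a1. Col4a4 fell by 0.32 ± 0.081 (1.25-fold, adjusted p = 0.00367), and its usual partner Col4a3 did not pass (0.03 ± 0.10). Col4a5 and Col4a6 differed by -0.04 and -0.02.

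Of the type VI chains, Col6a1 (-0.23 ± 0.057, adjusted p = 0.00304) and Col6a2 (-0.26 ± 0.057, adjusted p = 0.000766) fell, in 7 of 7 conditions each. Col6a3, the third chain of the classical type VI filament, differed by -0.06 ± 0.030 and was not called. Its probe above background on all 69 arrays gave -0.115, and those above background on 23 and 0 arrays gave -0.0433 and -0.0387. Col7a1 fell by 0.28 ± 0.057 (adjusted p = 0.000366), Col17a1 by 0.21 ± 0.044 (adjusted p = 0.000547) and Col18a1 by 0.16 ± 0.045 (adjusted p = 0.00854). With slide as a fixed block Col6a1 (0.446) and Col7a1 (0.0893) reversed. Col18a1 was called in 6 of the 10 alternative analyses, and in the controls its mean was higher on day 28 (-1.035) than on day 1 (-1.166). Col13a1, a transmembrane chain as Col17a1 is, differed by -0.06 ± 0.063, and Col15a1 by 0.03 ± 0.032. The probes of Col13a1, both above background on 69 arrays, went opposite ways (-0.19 and 0.0692). For Col15a1 the probe above background on 67 arrays gave 0.13, and the one above background on 1 array gave -0.0763. The probes of Col17a1 disagreed in size, with -0.344 from the one above background on 69 arrays and -0.0748 from the one above background on 34.

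Only 3 chains were called higher on day 28. All 3 changed sign with slide as a fixed block (Col8a2 -0.621, Col14a1 -0.0962 and Col26a1 -0.293, none called). Col8a2, a short-chain collagen best known from the membrane under the corneal endothelium, ran from 0.84 through a median of 1.46 to 2.34 on day 1, and from 1.42 through 1.95 to 2.66 on day 28. Its mean was higher in 7 of 7 conditions and in 7 of 7 scan days (0.0302 to 1.22 within a scan day, with unlike materials and doses). The difference over all conditions was 0.49 ± 0.081 (1.4-fold, adjusted p = 1.56e-05 in limma). Its partner Col8a1 did not move with it (-0.15 ± 0.070, adjusted p = 0.136). Col14a1, a chain that binds fibril surfaces, was higher by 0.19 ± 0.049 (adjusted p = 0.00441), from the probe above background on all arrays (0.387), while the other, above background on 1 array, gave -0.00461. Col26a1 was higher by 0.15 ± 0.050 (adjusted p = 0.0295) and above background on 57 of 69 arrays. It was called in 4 of the 10 alternative analyses. The fibril-associated Col16a1 (-0.16 ± 0.034, adjusted p = 0.000386) and Col22a1 (-0.11 ± 0.039, adjusted p = 0.0415) were lower, the latter above background on 34 arrays and called in 43 of 69 fits that left out 1 array.

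**Figure D4:**
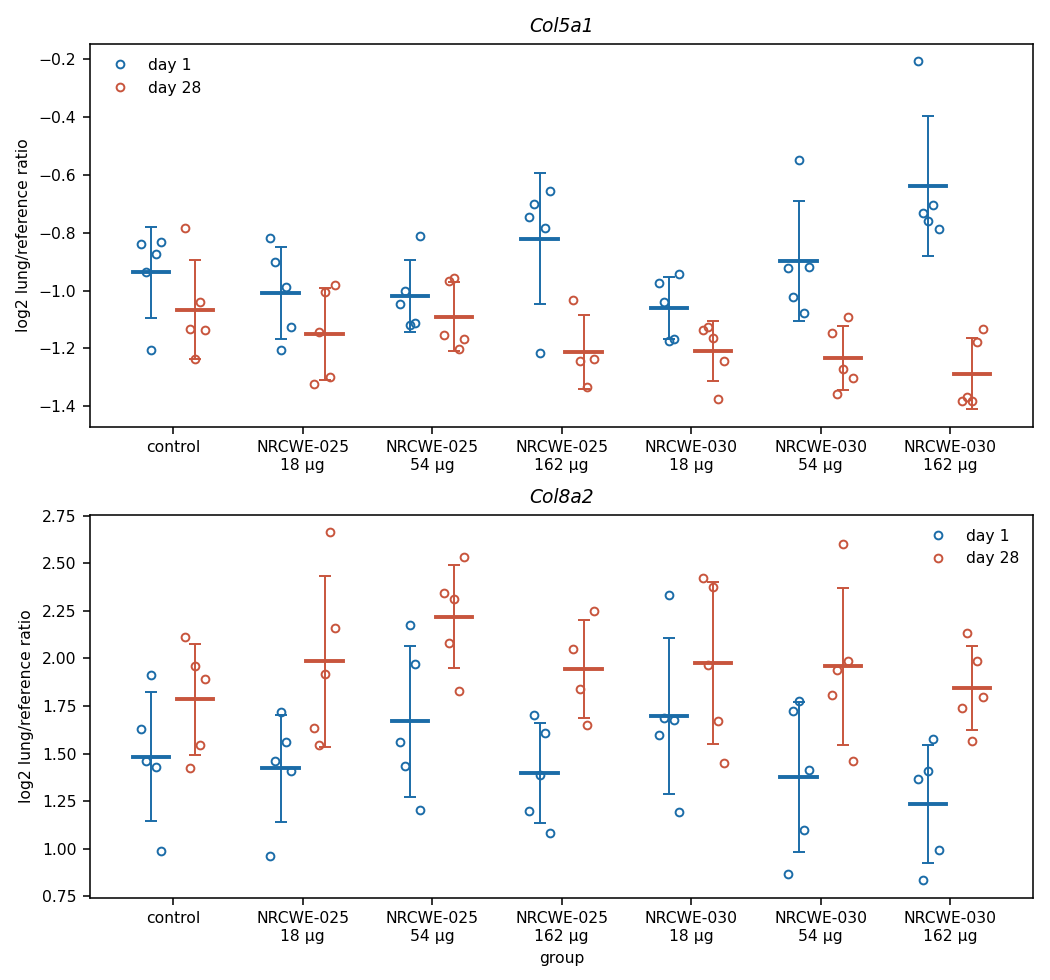
Log2 lung/reference ratio of Col5a1 and Col8a2 on each array (points), in the 14 groups, with group means and SD as bars. Col5a1 has medians of -0.92 on day 1 and -1.17 on day 28, and Col8a2 of 1.46 and 1.95; in each of the 7 conditions the Col5a1 mean is lower and the Col8a2 mean higher on day 28.

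In the 6 nano-TiO2 conditions without the vehicle controls, an analysis added after the results were seen, 18 chains were called between days, 3 higher and 15 lower. Of all genes 15.9% were called there, 8.53% higher and 7.33% lower. The additions were Col1a2 (-0.30 ± 0.099, adjusted p = 0.0296) and Col3a1 (-0.20 ± 0.068, adjusted p = 0.0346). A test of whether the day difference of the exposed lungs departed from that of the controls called no chain, and 0.113% of all genes (limma). At an unadjusted p under 0.05 it passed in 8 chains (18.6%), against 8.5% of all genes. The nearest were Col9a1 (0.27 ± 0.078, adjusted p = 0.153), which was above background on 7 arrays, and Col18a1 (-0.34 ± 0.129, adjusted p = 0.38). A day difference that belongs to the exposure was therefore not shown for any chain.

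Genes that fold, trim, crosslink and bind collagen were counted from a list of 59, of which 54 were measured. At 162 µg NRCWE-030 on day 1, 2 of the 54 were called, Pcolce2 and Fkbp10, where 1.69% of all genes were. Pcolce2, an enhancer of the protease that trims the procollagen C-terminus, was at 4.25, 4.29, 4.42, 4.55 and 4.18 in the controls and at 2.89, 3.52, 3.41, 3.89 and 3.67 in the treated lungs. It fell by 0.86 ± 0.169 (1.82-fold, adjusted p = 0.0113). Fkbp10, a chaperone of the endoplasmic reticulum needed for collagen crosslinking, moved the other way. Its values were -1.80, -1.90, -1.59, -1.67 and -1.84 in the controls and -0.75, -0.81, -1.32, -1.16 and -1.22 in the treated lungs, an increase of 0.71 ± 0.141 (1.64-fold, adjusted p = 0.0132). Neither gene overlapped between the groups.

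Over the 3 doses of NRCWE-030 on day 1, the F-test called Pcolce2 (adjusted p = 0.0171), Fkbp10 (0.0213) and Dcn (0.0486), 3 of 54 where 0.954% of all genes passed. Dcn encodes decorin, a small proteoglycan of the fibril surface and a marker of fibroblasts. It was at 0.51, 0.72, 0.84, 1.10 and 0.40 in the controls and at 0.40, -1.08, 0.23, -0.19 and -0.47 with 162 µg. The group means of Dcn were -0.49 at 18 µg, -0.44 at 54 µg and -0.22 at 162 µg, against 0.71 in the controls, so that all 3 doses were low and did not follow the dose. For NRCWE-025 on day 1 no list gene passed the F-test. The smallest p-values were those of Colgalt2 (adjusted p = 0.0895), which adds galactose to collagen hydroxylysine, Pcolce2 and Fkbp10. Against the same controls, the mean at 162 µg NRCWE-025 was 3.503 for Pcolce2 (SD 0.744, controls 4.34) and -1.315 for Fkbp10 (controls -1.76). Dcn averaged -0.05, -0.28 and -0.32 at 18, 54 and 162 µg NRCWE-025. Pcolce2, Fkbp10 and Dcn thus lay on the same side of the controls with both materials. On day 28 the smallest p-values were those of P4ha1, Itga11 and Ccn2 for NRCWE-025 and of Ccn2 (adjusted p = 0.291), Loxl2 and P3h4 for NRCWE-030, and none passed.

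Between days, 20 of the 54 list genes were called, 13 lower and 7 higher on day 28 (median of the list -0.0373), where 16.8% of all genes were called, 8.05% lower and 8.71% higher. These genes were not refitted with slide as a block. Of the 18 genes for hydroxylation and folding, 8 fell and none rose. They included Serpinh1, the collagen chaperone HSP47 (-0.44), Fkbp10 (-0.40), the prolyl 3-hydroxylase P3h1 (-0.26), the cyclophilin Ppib (-0.24) and P4hb, a subunit of prolyl 4-hydroxylase (-0.18). Of the 6 procollagen processing genes, Pcolce (-0.25), the C-proteinase Bmp1 (-0.23) and the N-proteinase Adamts2 (-0.11) fell, and Pcolce2 rose (0.24). The lysyl oxidases Loxl2 (-0.36) and Loxl3 (-0.10) were lower among 5 crosslinking genes. In the opposite direction, 3 of 6 fibril proteoglycans, Dcn (0.42), Lum (0.31) and Fmod (0.20), were higher. So were the receptors Gp6 and Itga11 (0.22 each) among 7 and the growth factor Pdgfb (0.18) among 6, and none of 6 uptake genes was called. In the controls alone none of the 54 was called between days, where 0.0375% of all genes were (limma). At an unadjusted p under 0.05, 4 passed, a share below that of all genes given above for this contrast. Dcn, higher on day 28 over all conditions, was lower in the controls, with means of 0.714 on day 1 and 0.441 on day 28. Fkbp10 averaged -1.76 and -1.811 in the controls of the 2 days, and Pcolce2 4.34 and 4.309.

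Markers of the cells that the lung piece could hold were read beside these results, with 58 of 60 measured, and their part in the results was not tested. At 162 µg NRCWE-030 on day 1, the level of the fibroblast list, the mean of its 8 genes per array, ran from 1.81 to 2.13, against 2.14 to 2.45 in the controls, with no overlap. Of these 8 genes Pdgfra fell (-0.55, adjusted p = 0.0463), and the median of the list was -0.413. In the 54 µg NRCWE-030 lungs of day 1 the level of the list was 1.76 to 2.05, and in the 18 µg lungs 1.98 to 2.36. It was low with 162 µg NRCWE-025 on day 1 too, at 1.66 to 2.16, though these lungs overlapped the controls. At 18 and 54 µg NRCWE-025 it was 2.06 to 2.54 and 2.02 to 2.36. Among 4 genes each, Cidec of the fat list was lower (-1.36) and Csf3r of the neutrophil list was higher (1.25), with list levels of 1.37 to 2.96 against 1.88 to 4.94 for fat and 3.58 to 4.06 against 3.12 to 3.75 for neutrophils. No gene of the smooth muscle, cartilage, mesothelium, heart, alveolar, endothelial, macrophage or proliferation lists was called there, where 1.69% of all genes were. The endothelial list lay at 4.77 to 5.09 against 4.98 to 5.37.

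Between days, Pdgfra (0.19) and Scara5 (0.16) of the 8 fibroblast markers were higher on day 28, with list levels of 1.66 to 2.54 on day 1 and 1.78 to 2.54 on day 28. The heart muscle list spanned a far wider range, 0.466 to 5.51 on day 1 (median 1.18) and 0.714 to 5.26 on day 28 (median 2.86), and Myh6 was called (0.86) among its 6 genes. In the fat list Cidec was higher (0.48), with levels of 1.07 to 4.94 and 1.65 to 5.54. Marco was lower among 3 macrophage markers (-0.61), and Top2a among 3 proliferation markers (-0.34). No smooth muscle, mesothelium, cartilage, alveolar, endothelial or neutrophil marker was called. Over all genes 16.8% were called between days, 8.71% higher and 8.05% lower, a larger share than among the markers. Of the cartilage markers, Matn1 and Cnmd were above background on no array and Matn3 and Hapln1 on 1 each, while Chad was on all 69.

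Chains that assemble into the same molecule, and Col1a1 with Col3a1, whose separate molecules share fibrils, were then compared within groups, over the deviations of the 69 arrays from their group means. This is a family of 7 pairs, with p-values from 100000 permutations within groups, 2-sided and adjusted over the 7. Col4a1 and Col4a2 had the highest correlation of any of the 903 pairs of chains, with r = 0.883 and rho = 0.855 (adjusted permutation p = 2.3e-05), and 0.863 without the 2 arrays farthest out. Col1a1 and Col1a2 had r = 0.775 and rho = 0.815 (adjusted permutation p = 2.3e-05, and 0.742 without 2 arrays). For Col4a3 and Col4a4 r was 0.625 and rho 0.628 (adjusted permutation p = 2.3e-05, and 0.592). Col1a1 and Col3a1 gave 0.546 and 0.523 (adjusted permutation p = 1e-04, and 0.492). The raw p of the first 3 pairs, 1e-05, is the smallest these permutations can give. With scan day taken out as well, r was 0.892, 0.703, 0.625 and 0.747 in the same order.

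The other pairs did not pass on the same values. Col5a1 and Col5a2 had r = 0.233 and rho = 0.183 (permutation p = 0.089, adjusted 0.12), Col6a1 and Col6a2 0.184 and 0.244 (permutation p = 0.15, adjusted 0.15), and Col8a1 and Col8a2 -0.204 and -0.229 (permutation p = 0.15, adjusted 0.15). Without the 2 arrays farthest out these were 0.218, 0.271 and -0.258, and with scan day taken out 0.298, 0.335 and -0.185. Each of these 3 passed under another setting. Col5a1 and Col5a2 passed with the brightest probe (r = 0.37, adjusted permutation p = 0.00938) and with marked backgrounds kept (0.308, 0.0276), but had r = -0.0448 with the scanner log ratio. Col6a1 and Col6a2 passed with the scanner log ratio (0.749, adjusted permutation p = 1.75e-05), and Col8a1 and Col8a2 with marked backgrounds kept (-0.325, 0.0276). Over all 903 pairs of chains the median r was 0.0096 (-0.577 to 0.883), given as a description since the pairs share arrays and dye. The chain nearest to Col18a1 was Col23a1 (r = 0.499), followed by Col1a2 (0.338) and Col1a1 (0.254). The chain nearest to Col5a1 was Col1a1 (0.697), not its partner Col5a2.

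**Figure D5:**
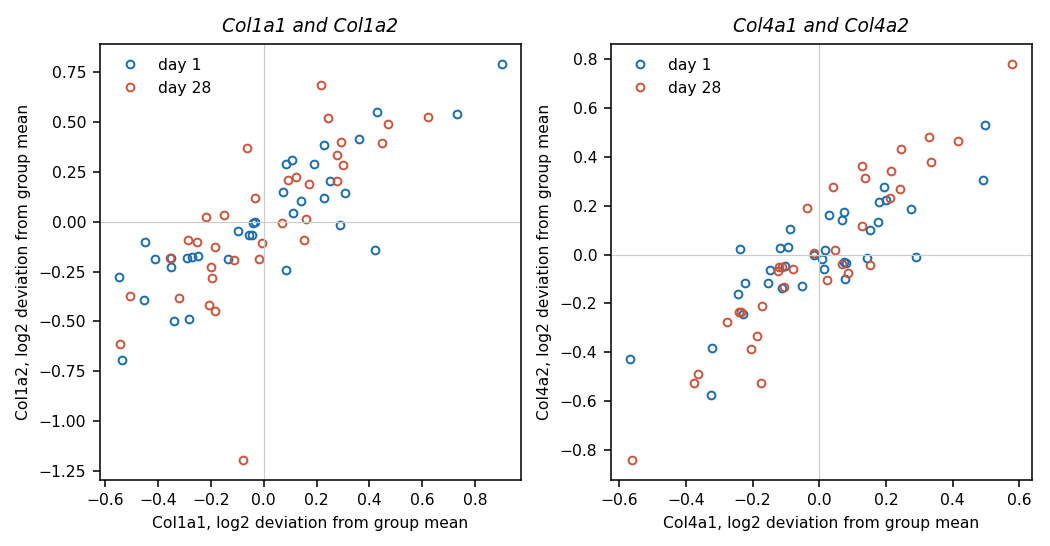
Deviation of each of the 69 arrays from its group mean, in log2 lung/reference ratio, for Col1a1 against Col1a2 and Col4a1 against Col4a2 (points, one per array). Points run along the diagonal in both panels, with r = 0.775 and r = 0.883.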

How the data were processed

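Lung RNA (200 ng per mouse) was hybridised with the reference RNA to 2-colour Agilent arrays, without dye swap. The authors deposited each array's scanner output, written by Agilent Feature Extraction 11.0.1.1, which holds the intensity of each spot and background, outlier flags (a score of 0 or 1) and a log10 ratio of red over green. A second deposited table holds log2 ratios that the authors normalised, and it was used as an alternative. Depth does not apply to arrays, whose number per group (4 or 5) limits the precision.

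Median spot signals were background-corrected with normexp (offset 50), local backgrounds marked as outliers being replaced by the median of the other backgrounds of the array. Loess was applied within arrays, and flagged spots were left out. Spots were reduced to the median per probe and probes to the median per RefSeq symbol. Of 41174 probes, 27484 (66.75%) had a symbol from GRCm38.p6, while the array design refers to mm9, so the table served for names and promoter sequence alone. Of 18753 genes, 93 with missing values were dropped. Tests used limma 3.58.1 in R 4.3.3, per day and material against the controls of that day, and over all 14 groups for days and interactions, with Benjamini-Hochberg adjustment over 18660 genes and a threshold of 0.05. Array slide and scan day were tested as blocks. The test was checked on simulated data.

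The chains, the gene lists and the markers were chosen with earlier results of these data known. Chains were named when called, when among the 5 smallest p-values of a dose test, or when on a fixed list of well-known chains; list genes were named when called or among the 3 smallest. Marker levels are means of log2 ratios over a list.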

Additional observations from a re-analysis of the deposited data

Results flagged for a closer look

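In the 16 chains called between days over all groups, 13 of 224 groups of 4 or 5 arrays held 1 array far from the rest, by the gap to its nearest neighbour over the range of the group. Chance gives this in about 1 group in 20.

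Replicate 1 of the 162 µg NRCWE-030 group on day 1 stood high for Col1a1 (-0.4339, against -1.745 to -1.389 in the others) and for Col5a1 (-0.2075, against -0.7873 to -0.705). Col5a1 was also low in replicate 3 of the 162 µg NRCWE-025 group on day 1 (-1.215, against -0.7836 to -0.6542) and in control replicate 3 of day 1 (-1.207, against -0.935 to -0.8311). On day 28, replicate 5 of 162 µg NRCWE-030 was high for Col1a1 (-1.401, against -2.068 to -1.878), and replicate 3 of the same group was high for Col4a2 (1.252, against 0.6098 to 0.7751).

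The fibril-associated chains gave 5 of the 13. Col14a1 was low in replicate 5 of 18 µg NRCWE-030 on day 28 (1.284, against 1.661 to 1.788) and in replicate 5 of 54 µg NRCWE-030 on day 28 (1.487, against 1.794 to 1.869). The first of these arrays was low for Col22a1 too (-0.5227, against -0.2588 to -0.1966). Col16a1 was high in control replicate 4 of day 1 (-1.008, against -1.128 to -1.119) and in replicate 4 of 18 µg NRCWE-025 on day 28 (-1.194, against -1.279 to -1.262). Col17a1 was low in replicate 5 of 18 µg NRCWE-030 on day 1 (0.5789, against 1.255 to 1.375). Col6a1 was low in replicate 2 of 54 µg NRCWE-030 on day 1 (-1.379, against -1.175 to -1.1).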

How the results depend on the processing

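Of 220 counts of called chains recomputed under other settings, 207 stayed within 1.5 times the reported count. Most of these were a reported 0 that stayed at 0, so the share says little about the calls that were made. The 1 chain at 162 µg NRCWE-030 on day 1 became 0 to 2 over 10 settings, and the 16 between days became 0 to 16. Slide moved most. As a random block it called 1 chain for NRCWE-030 dose on day 1 (Col18a1), 1 at 162 µg NRCWE-030 on day 28 (Col5a3), 1 for the 162 µg day difference of NRCWE-025 (Col6a6), 2 for that of NRCWE-030, and 6 between days. As a fixed block it called 0 at 162 µg NRCWE-030 on day 1, 1 for the day difference of NRCWE-025 (Col6a6) and 0 between days, where 7 chains reversed: Col14a1 (-0.0962), Col26a1 (-0.293), Col4a1 (0.56), Col4a2 (0.755), Col6a1 (0.446), Col7a1 (0.0893) and Col8a2 (-0.621), none of them called. That estimate rests on the 1 slide that held both days. Scan day as a fixed block gave 0 at 162 µg NRCWE-030 on day 1 and 1 for the day difference of NRCWE-025. The brightest probe gave 0 and the scanner log ratio 2 (with Col7a1) at 162 µg NRCWE-030 on day 1, and backgrounds kept as marked gave 10 between days.

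For partner chains, the correlation of Col1a1 and Col3a1 became 0.747 with group and scan day removed. That of Col5a1 and Col5a2 became 0.37 with the brightest probe, 0.308 with marked backgrounds kept and -0.0448 with the scanner log ratio. The scanner log ratio gave 0.749 for Col6a1 and Col6a2, and marked backgrounds gave -0.325 for Col8a1 and Col8a2. The cause of these changes was not tested.

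Leaving out 1 array at a time gave 0 to 1 chains for NRCWE-030 dose on day 1 (Col18a1 without replicate 4 of 54 or of 162 µg, Col5a2 without replicate 5 of 18 µg). It gave 0 to 1 at 162 µg NRCWE-025 on day 1 (Col14a1 without replicate 2 of that group), 0 to 1 at 162 µg NRCWE-030 on day 1, 0 to 1 for the day difference of NRCWE-025 (Col6a6 without control replicate 3 of day 1, or without replicate 1 of 162 µg or replicate 5 of 54 µg on day 28), and 14 to 17 between days. The other counts refitted in this way stayed at 0. No paired analysis was possible because replicate numbers were given in accession order and pair no lungs across groups.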
